A study of Homo sapiens with 66 samples.

Results

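The 9 forkhead genes FOXC1, FOXQ1, FOXA1, FOXA2, FOXO1, FOXO3, FOXM1, FOXP1 and FOXK1 were followed through 66 RNA-seq libraries of DLD-1 cells, a human colorectal adenocarcinoma line in which single proteins of the nuclear pore and of mRNA export can be degraded with auxin. The genes were matched by symbol to the Ensembl identifiers of the count tables, which list 58051 genes. They were chosen by their auxin against untreated fold changes in earlier results from these same libraries, so those fold changes are given here as a description, without p-values. All 9 passed the expression filter that 17812 genes passed.

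Every tagged line carried an auxin-inducible degron (AID) on both alleles of an endogenous gene, together with the plant ligase TIR1 expressed from the RCC1 locus, and auxin at 1 mM then sends the tagged protein to the proteasome. The tagged genotypes were AID-NeonGreen-TPR, NUP153-NeonGreen-AID, NUP50-NeonGreen-AID, GAP1-NeonGreen-AID (RANGAP1), AID-FLAG-NXF1 and AID-HA-GANP1, shortened below to AID-TPR and NUP50-AID, for example, with RANGAP1-AID for the fourth and AID-GANP for the last. TPR, NUP153 and NUP50 form the nuclear basket of the pore, RANGAP1 activates the GTPase of Ran, NXF1 is the mRNA export receptor, and GANP is the scaffold of the TREX-2 export complex. Each line was sampled untreated and after auxin: 2 h for AID-TPR, NUP153-AID, RANGAP1-AID and AID-NXF1, 3 h for NUP50-AID and AID-GANP, and a later time of 8 h for AID-TPR, NUP153-AID and RANGAP1-AID and 9 h for NUP50-AID. AID-TPR cells were sampled in 2 label sets, replicates 1 to 3 (untreated and 2 h) and replicates old1 to old3 (untreated, 2 h and 8 h), and again with actinomycin D (ActD), an inhibitor of transcription, for 2 h with or without auxin. Parental DLD-1 cells were sampled untreated and after 2 h of auxin. There were 22 groups of 3 libraries. How many clones stand behind each tagged line is not given in the sources used here, so a line, its clone, its tag and TIR1 cannot be told apart.

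Forkhead (FOX) proteins bind DNA through a winged-helix domain and sit at the end of many developmental and signalling pathways. FOXA1 and FOXA2 are pioneer factors that open chromatin in endoderm and its epithelia, FOXO1 and FOXO3 are kept out of the nucleus by insulin and Akt signalling, FOXM1 drives genes of G2 and mitosis, and FOXK1 and FOXP1 act mostly as repressors. FOXC1 is a regulator of mesenchymal and eye development, and FOXQ1 is an epithelial factor known for its high expression in colorectal tumours. Most forkhead genes have introns, while FOXC1, FOXQ1 and several relatives are encoded in a single exon and their transcripts are made without splicing.

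FOXC1 (ENSG00000054598, GRCh38 chromosome 6, 1609915 to 1613897, plus strand) and FOXQ1 (ENSG00000164379, chromosome 6, 1312098 to 1314758, plus strand) each had 1 exon in every annotated transcript of GENCODE 44. Their start sites lie 297817 bases apart on 6p, with FOXF2, another forkhead gene, which did not pass the filter, between them. No tested gene other than the pair itself starts within 300 kb of either start. The canonical transcripts of FOXA1 and FOXA2 have 2 exons, those of FOXO1 and FOXO3 have 3, those of FOXM1 and FOXK1 have 9, and that of FOXP1 has 21. No annotated gene overlaps FOXC1 or FOXQ1. Exons of FOXM1 overlap those of ITFG2 and exons of FOXA1 overlap those of TTC6, both on the opposite strand, and FOXP1 overlaps several noncoding genes.

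The 250 bases before the start sites of FOXC1, FOXQ1 and FOXD1 (RefSeq, GRCh38.p14) are shown. These 3 genes with 1 exon were lower after NXF1 and GANP loss. Other forkhead genes with 1 exon, such as FOXD2, were lower there too and are not shown. The 3 windows are at chr6:1609665-1609914 on the plus strand, chr6:1311848-1312097 on the plus strand and chr5:73448778-73449027 on the minus strand. They are written 5′ to 3′ on the strand of the gene. Capitals mark matches on either strand to CCAAT (the CCAAT box), TATAA (the TATA box core), GGGCGG (the GC box) or TGACG (part of the CRE).
FOXC1: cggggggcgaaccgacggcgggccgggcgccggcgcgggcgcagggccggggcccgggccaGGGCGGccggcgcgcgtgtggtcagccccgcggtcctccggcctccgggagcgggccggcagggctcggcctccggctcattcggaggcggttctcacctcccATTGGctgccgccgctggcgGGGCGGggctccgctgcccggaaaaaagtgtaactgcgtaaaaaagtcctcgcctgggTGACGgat
FOXQ1: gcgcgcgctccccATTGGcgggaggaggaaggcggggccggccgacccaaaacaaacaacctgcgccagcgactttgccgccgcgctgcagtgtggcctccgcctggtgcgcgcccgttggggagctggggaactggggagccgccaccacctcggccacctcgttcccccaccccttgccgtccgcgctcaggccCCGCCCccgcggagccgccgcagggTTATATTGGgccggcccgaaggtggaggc
FOXD1: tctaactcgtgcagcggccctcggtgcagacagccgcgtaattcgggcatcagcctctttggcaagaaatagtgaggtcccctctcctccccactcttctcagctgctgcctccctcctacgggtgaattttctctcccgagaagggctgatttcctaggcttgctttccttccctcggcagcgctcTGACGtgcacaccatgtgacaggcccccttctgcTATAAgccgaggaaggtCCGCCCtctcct
The FOXC1 and FOXQ1 windows were rich in G and C, at 76.8% and 74%, while FOXD1 at 58.8% was close to the median of 58% over 35116 promoter windows of this length. The FOXC1 window held 1 CCAAT match (as ATTGG, bases -86 to -82), 2 GGGCGG matches and a TGACG match at -8 to -4. The FOXQ1 window held 2 CCAAT matches, the nearer at -25 to -21, where it shares 1 base with a TATAA match at -29 to -25, and 1 GGGCGG match. The FOXD1 window held TATAA at the same -29 to -25, with GGGCGG and TGACG as well. This TATAA match reads on the strand of the gene, while that of FOXQ1 reads on the opposite strand. Of all windows 32% held CCAAT, 18.9% held TATAA, 42.6% held GGGCGG and 21.2% held TGACG. The forkhead core GTAAACA, present in 2.98% of windows, was in none of the 3. These matches describe letters only. Of the 9 genes, 7 had an entry in the promoter table.

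The libraries held 18943661 to 55411411 counts assigned to genes, with a median of 32285400. Levels are given as counts-per-million (CPM) of the library total. Epithelial genes were abundant throughout (EPCAM at 338 to 734 CPM, CDH1 419 to 791, KRT8 2350 to 7700), the intestinal regulator CDX2 stood at 69.8 to 358, and PTPRC, PECAM1, COL1A1 and DES, which mark leukocytes, endothelium, fibroblasts and muscle, reached at most 0.152, 0.942, 1.75 and 0.0779. The degron acts on protein, and in no auxin comparison was the RNA of the tagged gene called in its own line. Because the tables were counted in 2 ways (mitochondrial genes have no counts in 24 libraries, namely AID-TPR replicates 1 to 3, both export factor lines and DLD-1, have counts in 33, namely NUP153-AID, NUP50-AID, ActD and old1 to old3, and the 9 RANGAP1-AID libraries show features of both ways), levels were compared only among libraries counted alike. CYP1A1, a target of the aryl hydrocarbon receptor, fell in DLD-1 libraries labelled auxin, with 14.5, 14.0 and 9.55 CPM against 201, 179 and 171 CPM untreated, while it was higher with auxin in every tagged line. The 2 auxin libraries labelled old2 stood apart. Over 14632 genes, the old2 difference between 8 h and 2 h ran opposite to those of old1 and old3 (Pearson r = -0.78 and -0.82, against 0.7 between old1 and old3), while the same correlations were 0.08 to 0.77 in the other lines with a late time.

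Levels were compared between genes as CPM per kilobase of exon in untreated DLD-1 cells. Exon length was that of the merged exons of all annotated transcripts, 32800 bases for FOXP1, 3983 for FOXC1 and 5957 for FOXO1. FOXA1 was at 34.1 ± 5.37 (SD, n = 3), FOXQ1 at 31.5 ± 5 and FOXM1 at 24.6 ± 1.35. FOXK1 was at 7.9 ± 0.328, FOXO3 at 7.13 ± 0.887, and FOXC1 at 1.05 ± 0.128. FOXO1 at 0.738 ± 0.0985, FOXP1 at 0.442 ± 0.0566 and FOXA2 at 0.345 ± 0.0564 were lowest on this scale. In CPM alone FOXP1, at a mean of 14.5, was above FOXC1 at 4.2 and FOXO1 at 4.4. In the per-kilobase order the 3 libraries of FOXA1 and FOXQ1 overlapped, as did those of FOXQ1 and FOXM1 and of FOXK1 and FOXO3. Those of the other neighbours did not. FOXC1, whose counts were 47 to 254 per library with a median of 151, was thus measured with far fewer reads than FOXQ1 (343 to 5674, median 2217) or FOXA1 (1998 to 7041, median 4548). FOXA2 was the shallowest of the 9, at 18 to 270 counts.

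The first question was how the 9 genes responded to loss of TPR. FOXC1 fell in both 2 h label sets. In replicates 1 to 3 its level was 7.67, 6.93 and 5.54 CPM untreated and 3.23, 2.61 and 3.23 CPM after 2 h of auxin. All 3 treated libraries lay below all 3 untreated ones, and FOXC1 was 2.17-fold lower (log2 fold change -1.12 ± 0.15, SE). Calls required an adjusted p under 0.05 in edgeR's quasi-likelihood test together with a ratio of auxin to untreated of 1.3 or more, or of 0.7 or less. FOXC1 was the member called here, 1 of 9, beside 0.477% of all genes tested. The call was lost without auxin replicate 1, auxin replicate 3 or untreated replicate 1 (log2 fold change -1.16, -1.17 and -1.04). In bulk RNA, fewer cells of a kind and less RNA per cell cannot be told apart.

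FOXQ1 had 64.9, 97.6 and 67.0 CPM untreated and 34.3, 52.3 and 45.1 CPM after auxin in the same set. Its groups did not overlap, at 1.71-fold lower (log2 fold change -0.78 ± 0.19), but it was not called. With the replicate number as a block, which the pairing check backed in this set, 2 members were called, FOXC1 and FOXQ1 (log2 fold change -0.77 with the block). The share of all genes called with the block is not given, here or below. FOXA1 (-0.34 ± 0.10), FOXO1 (-0.28 ± 0.13), FOXO3 (-0.18 ± 0.08) and FOXK1 (-0.12 ± 0.07) also had groups that did not overlap without being called, while FOXM1 (0.03 ± 0.09) and FOXP1 (0.02 ± 0.16) stood close to 0.

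In the set labelled old, FOXC1 had 8.44, 7.93 and 8.53 CPM untreated and 3.42, 4.12 and 3.61 CPM after 2 h. The groups were well apart, FOXC1 was 2.06-fold lower (log2 fold change -1.05 ± 0.19), and it was again the member called, beside 0.444% of all genes. FOXQ1 had 76.6, 88.5 and 120 CPM untreated and 35.0, 18.2 and 64.8 CPM after 2 h, where 18.2 is the library labelled old2. Its log2 fold change was -1.19 ± 0.35, and that of FOXA2 was -0.85 ± 0.30, with no overlap between groups and no call for either. Without the library labelled old2 at 2 h, FOXC1 stood at -1.17 ± 0.17 and stayed called, and FOXQ1 stood at -0.87 ± 0.28. The FOXC1 call was lost without auxin replicate old1 (-0.96) or old3 (-1.0) and without untreated replicate old1 (-1.03), old2 (-1.09) or old3 (-1.01), and without auxin replicate old3 FOXQ1 was called instead, at -1.73.

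After 8 h of auxin none of the 9 genes was called by edgeR, beside 3.59% of all genes. At an unadjusted p under 0.05 there were 3 of the 9, beside 4313 of 17812 genes. DESeq2 called 3 members, beside 1894 genes. FOXC1 had 4.54, 2.26 and 5.61 CPM at 8 h and FOXQ1 had 13.8, 50.4 and 22.5 CPM. The library labelled old2 was the lowest of its group for FOXC1 and the highest for FOXQ1, and all 8 h libraries lay below all untreated ones for both. The log2 fold changes were -0.87 ± 0.29 for FOXC1, -1.59 ± 0.40 for FOXQ1 and -1.09 ± 0.29 for FOXA2. Without the library labelled old2 at 8 h these became -0.58 ± 0.18, -2.26 ± 0.25 and -1.16 ± 0.32 and all 3 were called, while calls over all genes went from 639 to 3733.

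**Figure D1:**
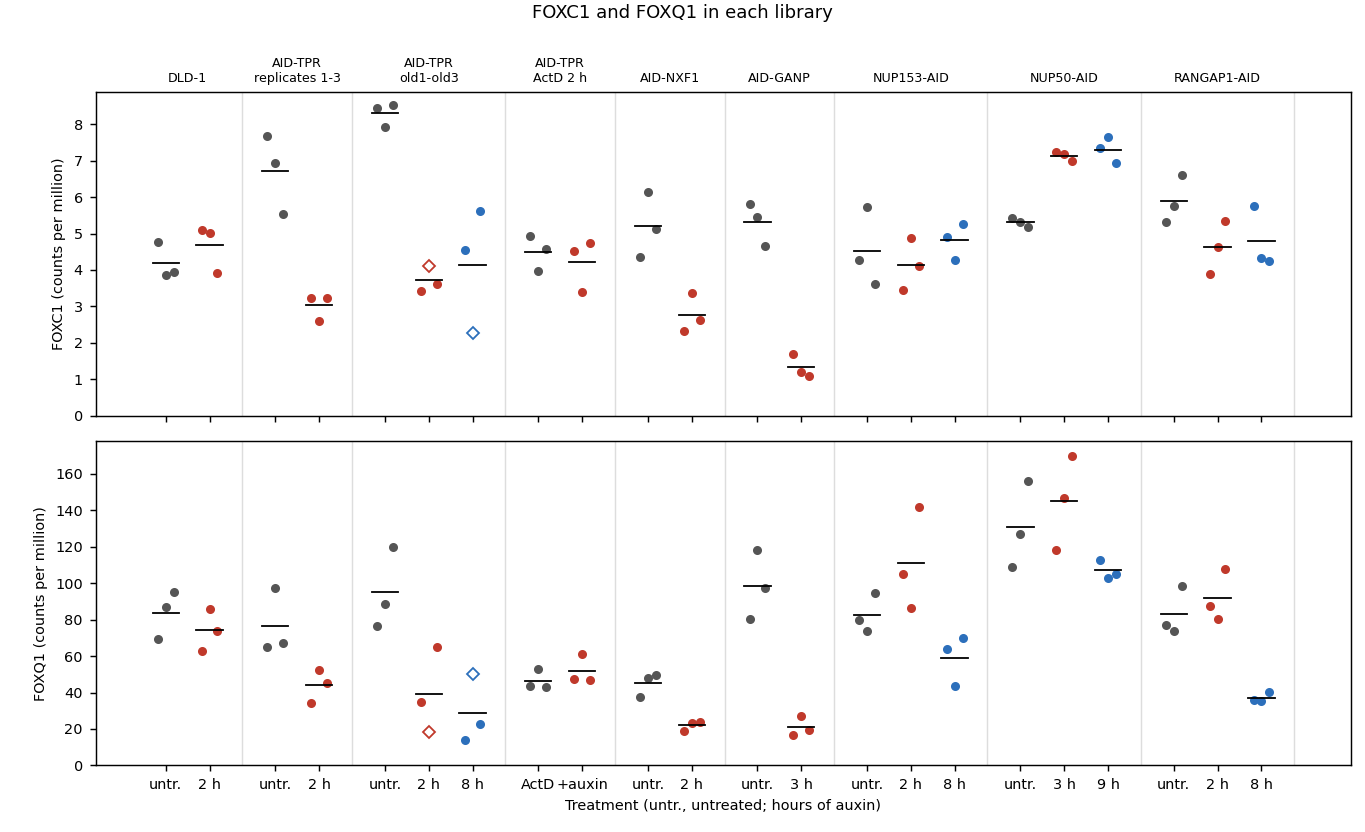
CPM of FOXC1 (upper panel) and FOXQ1 (lower panel) on the vertical axes in each library, by cell line and treatment on the horizontal axis. Points are libraries, bars are means of 3, gray is no auxin, red 2 or 3 h and blue 8 or 9 h of auxin, and open diamonds are the auxin libraries labelled old2. Both genes were lower with auxin in AID-TPR, AID-NXF1 and AID-GANP cells, and FOXQ1 was lower at 8 h in RANGAP1-AID cells.

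In AID-TPR cells given ActD, FOXC1 had 4.93, 3.97 and 4.58 CPM without auxin and 4.51, 3.39 and 4.73 CPM with it, and the groups overlapped. The log2 fold changes of the 9 genes ran from -0.09 to 0.15. No member and no gene at all was called by edgeR (0% of genes, 78 genes and no member at an unadjusted p under 0.05), and DESeq2 called none either. FOXC1 stood at -0.09 ± 0.17 and FOXQ1 at 0.15 ± 0.14. The difference from the change without ActD was not tested. Parental DLD-1 cells showed no called member after auxin, beside 0.0561% of genes, with log2 fold changes of -0.17 to 0.19. At an unadjusted p under 0.05 there was 1 member, FOXM1 (-0.15 ± 0.05), beside 558 of 17812 genes, and DESeq2 called no member.

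The other basket proteins gave other profiles. In NUP153-AID cells no member was called at 2 h by edgeR, beside 0.0225% of genes, or by DESeq2. At an unadjusted p under 0.05 there was 1 member, beside 667 of 17812 genes. FOXQ1 had 79.8, 73.6 and 94.9 CPM untreated, 105, 86.2 and 142 CPM at 2 h, and 63.8, 43.8 and 69.7 CPM at 8 h. It was thus above untreated in its mean at 2 h (log2 fold change 0.43 ± 0.17, groups overlapping) and below at 8 h (-0.52 ± 0.16, no overlap). With the replicate block at 2 h, which the pairing check backed, FOXQ1 was called at 0.41. At 8 h edgeR called no member, beside 1.32% of genes, and DESeq2 called FOXQ1, beside 389 genes. There were 2 members at an unadjusted p under 0.05, beside 2459 of 17812 genes. FOXM1 stood at 0.34 ± 0.12 at 8 h with no overlap, and FOXC1 at -0.12 ± 0.19 and 0.05 ± 0.17 at 2 h and 8 h.

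NUP50-AID cells went the opposite way for FOXC1. Its level was 5.43, 5.33 and 5.18 CPM untreated, 7.23, 7.19 and 6.99 CPM after 3 h and 7.34, 7.64 and 6.94 CPM after 9 h of auxin. Every treated library lay above every untreated one, and the log2 fold change was 0.44 at both times (± 0.13 and ± 0.12). No member was called at 3 h, beside 0.18% of genes, or at 9 h, beside 0.365%, by edgeR, and none by DESeq2. There were 3 and 5 members at an unadjusted p under 0.05, beside 1091 and 2940 of 17812 genes. FOXO3 at 3 h (0.37 ± 0.09) and FOXK1 and FOXM1 at 9 h (0.32 ± 0.06 and 0.28 ± 0.07) were likewise above untreated in all libraries.

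In RANGAP1-AID cells the 1-exon pair parted. FOXQ1 had 77.1, 73.8 and 98.6 CPM untreated, 87.6, 80.5 and 108 CPM at 2 h, and 35.8, 35.2 and 40.5 CPM at 8 h. It overlapped untreated at 2 h (log2 fold change 0.18 ± 0.13) and was 2.17-fold lower at 8 h (-1.12 ± 0.10), where it was called, beside 14.8% of genes. FOXC1 had 5.32, 5.76 and 6.61 CPM untreated and 5.77, 4.33 and 4.25 CPM at 8 h, overlapping, with log2 fold changes of -0.32 ± 0.15 and -0.27 ± 0.15 at 2 h and 8 h. FOXA2 stood at -0.74 ± 0.25 and -0.62 ± 0.23, with no overlap at either time, and was called at both with the replicate block, which the pairing check backed. At 2 h no member was called without the block, beside 0.545% of genes, and none by DESeq2. At an unadjusted p under 0.05 there were 2 members, beside 1297 of 17812 genes. FOXO1 (-0.39 ± 0.12), FOXM1 (0.25 ± 0.06) and FOXK1 (0.37 ± 0.07) were apart from untreated at 8 h without being called. They passed the p bound but not the fold bound.

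After loss of the export receptor NXF1 3 of the 9 genes were called, all lower. Over all genes 8.12% were called in either direction, 1057 lower and 389 higher. FOXC1 had 4.35, 6.13 and 5.13 CPM untreated and 2.32, 3.36 and 2.62 CPM after 2 h of auxin, 1.79-fold lower (log2 fold change -0.84 ± 0.17). FOXQ1 had 37.8, 47.9 and 49.7 CPM untreated and 19.1, 23.4 and 24.0 CPM after auxin, 1.95-fold lower (-0.96 ± 0.10). FOXA1 had 114, 135 and 117 CPM untreated and 62.6, 74.7 and 72.7 CPM after auxin (-0.74 ± 0.08). None of these groups overlapped. FOXO3 (-0.50 ± 0.06), FOXO1 (-0.41 ± 0.14) and FOXK1 (-0.34 ± 0.05) also had no overlap but were not called. Of these, FOXO3 and FOXK1 passed the p bound but not the fold bound. FOXM1 at 0.00 ± 0.05 and FOXP1 at 0.04 ± 0.19 overlapped.

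After loss of GANP 5 of the 9 genes were called, beside 15.5% of all genes, and FOXC1 and FOXQ1 were the lowest of the 9. FOXC1 had 5.81, 5.45 and 4.65 CPM untreated and 1.68, 1.20 and 1.09 CPM after 3 h, 3.7-fold lower (log2 fold change -1.89 ± 0.17). FOXQ1 had 80.2, 118 and 97.4 CPM untreated and 16.7, 27.1 and 19.4 CPM after 3 h, 4.36-fold lower (-2.13 ± 0.18). Both groups were separated by more than the whole range of either. FOXA1 (-0.67 ± 0.09) and FOXK1 (-0.57 ± 0.07) fell as well, while FOXP1 rose, from 15.5, 18.4 and 20.8 CPM to 21.1, 23.5 and 23.5 CPM (0.42 ± 0.11). The FOXP1 call was lost with library sizes alone (0.31), in a joint fit of all libraries (0.44), and without auxin replicate 3 (0.38) or untreated replicate 1 (0.33). FOXM1, the cell cycle factor, had 139, 143 and 143 CPM untreated and 119, 135 and 129 CPM after auxin, a log2 fold change of -0.05 ± 0.07 after library scaling. FOXC1 and FOXQ1 remained called in AID-NXF1 and AID-GANP cells whichever of the 6 libraries was left out.

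**Figure D2:**
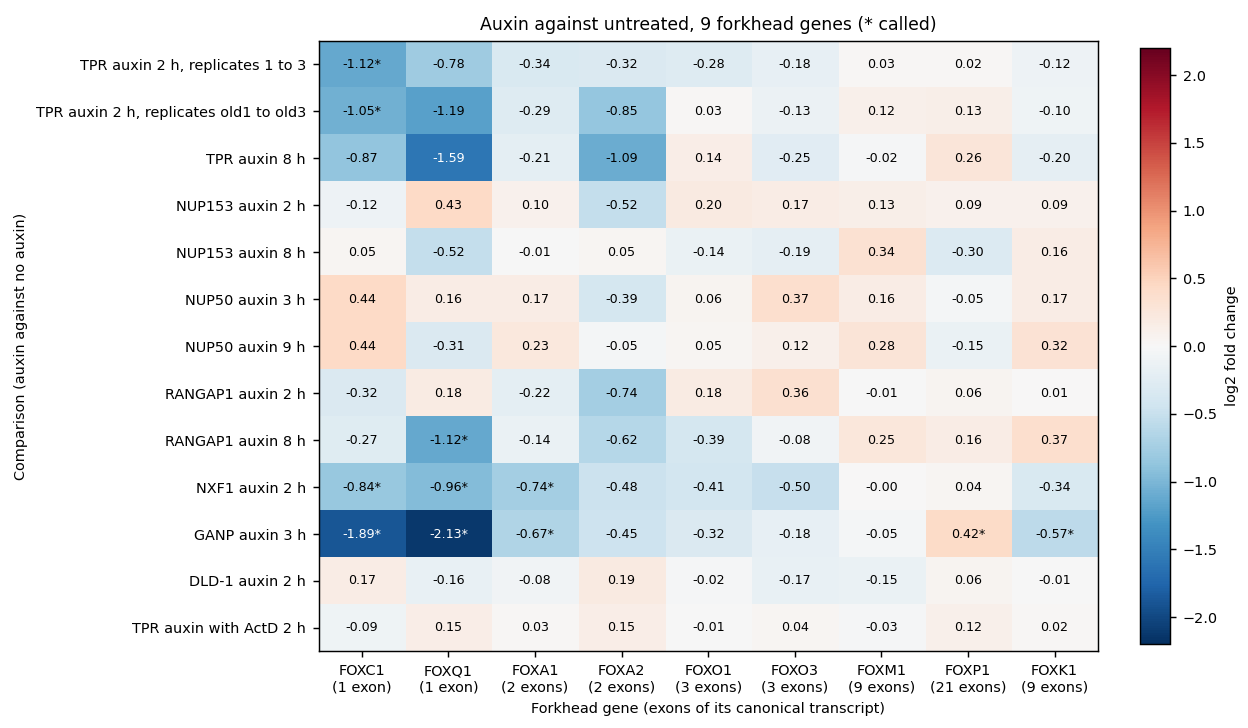
Heat map of log2 fold changes, auxin against no auxin, of the 9 genes (columns, with the exons of the canonical transcript) in 13 comparisons (rows). Blue is lower and red higher with auxin, and asterisks mark calls. FOXC1 and FOXQ1 reach -1.89 and -2.13 in AID-GANP cells, while no value of the ActD row is outside -0.09 to 0.15.

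The difference between lines was fitted as an interaction, with an adjusted p under 0.05 as the bound. These differences are built from the changes on which the 9 genes were chosen, so for the members they and their counts past the bound are a description. For FOXC1 the 2 h change in AID-TPR cells (replicates 1 to 3) was lower than the 3 h change in NUP50-AID cells by a log2 difference of -1.56 ± 0.19, and lower than the 2 h change in DLD-1 cells by -1.30 ± 0.21. FOXC1 was the member past the bound in each, beside 0.124% and 0.825% of all genes. The second difference takes the DLD-1 labels as given, in which CYP1A1 ran opposite to the tagged lines. Against NUP153-AID and RANGAP1-AID at 2 h the FOXC1 differences were -1.0 ± 0.26 and -0.81 ± 0.22 and those of FOXQ1 -1.21 ± 0.29 and -0.96 ± 0.25. Neither comparison had a member past the bound in edgeR without a replicate block, where 0.646% and 0.298% of all genes passed. At an unadjusted p under 0.05 there were 6 and 4 members, beside 1150 and 1114 of 17812 genes. DESeq2 passed 1 member in each, FOXC1 against NUP153-AID and FOXQ1 against RANGAP1-AID, beside 262 and 146 genes. Between AID-NXF1 (2 h) and AID-GANP (3 h), FOXC1 differed by 1.01 ± 0.25 and FOXQ1 by 1.12 ± 0.23, the change in AID-GANP cells being the lower, and both were past the bound, beside 2.62% of genes. With the replicate number as a block 4 members passed against NUP153-AID, 4 against RANGAP1-AID and 5 between AID-NXF1 and AID-GANP, FOXC1 and FOXQ1 in each. The pairing check backed the block in every auxin comparison that enters these counts. The shares of all genes above are from the fit without the block, so the counts with the block have no share beside them. A general gain in calls with the block and one of the members cannot be told apart here. The times of auxin were not the same in the comparisons with NUP50-AID and AID-GANP.

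The second question was how FOXC1 and FOXQ1 compare with forkhead genes that have introns. Over the 7 members with introns the log2 fold change had its median at -0.18 after 2 h of TPR loss in replicates 1 to 3, -0.10 in the old set, -0.20 at 8 h, -0.41 after NXF1 loss and -0.32 after GANP loss. The corresponding values of FOXC1 and FOXQ1 averaged -0.95, -1.12, -1.23, -0.90 and -2.01. As these 9 genes were chosen on these changes, the forkhead genes that were not among them follow. The count tables list 45 forkhead genes, of which 36 are not members. Of these, 15 passed the filter and 21 did not, the highest of them FOXO6 at 1.23 CPM in its best library.

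FOXD1, FOXD2, FOXD4 and FOXL1 were the other tested forkhead genes with 1 exon, by the canonical transcript here and below. FOXL1 also has a coding transcript with 2 exons. Their median log2 fold change was -0.50 after 2 h of TPR loss, -0.93 in the old set, -0.92 at 8 h, -0.33 after NXF1 loss and -0.79 after GANP loss. The 11 others with introns had medians of -0.08, 0.03, -0.05, -0.26 and -0.11, and over all tested genes the median was within 0.01 of 0 in each of these comparisons. All 6 forkhead genes with 1 exon, FOXC1 and FOXQ1 included, were below 0 in each of these 5 comparisons. Of the members with introns, FOXA1, FOXA2, FOXO3 and FOXK1 were so too, while FOXO1, FOXM1 and FOXP1 were not. The old set at 2 h and 8 h shares its untreated libraries, so the comparisons are not independent. FOXD2 and FOXD4 had few reads, at 40 to 69 and 50 to 65 counts in untreated AID-TPR replicates 1 to 3.

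FOXD1, a factor of kidney stroma development, was called in 4 of them. It had 18.8, 17.7 and 19.7 CPM untreated and 12.8, 11.3 and 13.1 CPM after 2 h of TPR loss (log2 fold change -0.57 ± 0.09, edgeR adjusted p = 0.0316). In AID-GANP cells it had 14.5, 14.6 and 14.1 CPM untreated and 6.45, 5.29 and 5.64 CPM after auxin (-1.21 ± 0.10, edgeR adjusted p = 1.52e-05). In both lines every treated library lay below every untreated one. It also fell after 8 h of TPR loss (-1.54 ± 0.29, edgeR adjusted p = 0.0288) and after NXF1 loss (-0.54 ± 0.11, edgeR adjusted p = 0.00647). In the old set at 2 h it had 12.1, 5.55 and 16.4 CPM against 23.6, 23.1 and 37.3 CPM untreated (-1.22 ± 0.33), the lowest being the library labelled old2, with no overlap and no call. The change of FOXD1 was lower in AID-TPR than in DLD-1 cells (difference -0.60 ± 0.11, edgeR adjusted p = 0.0255, with the DLD-1 labels taken as given) and lower in AID-GANP than in AID-NXF1 cells (difference 0.63 ± 0.15 for NXF1 less GANP, edgeR adjusted p = 0.0405). FOXD1-AS1 overlaps FOXD1 on the opposite strand, at a mean of 7.77 CPM in untreated replicates 1 to 3 and at 0 in the old set, where the counting differed.

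Calls were not restricted to genes with 1 exon. FOXD2, with 1 exon, fell after NXF1 and GANP loss (-1.12 ± 0.19 and -1.37 ± 0.32, edgeR adjusted p = 0.00169 and 0.00867), the latter from 14, 19 and 30 counts to 10, 11 and 11. FOXJ2, with introns, fell in the same comparisons (-0.69 ± 0.07 and -1.06 ± 0.10, edgeR adjusted p = 3.36e-05 and 2.42e-05), as did FOXH1, the partner of SMAD proteins in nodal signalling (-1.24 ± 0.17 and -1.94 ± 0.18, edgeR adjusted p = 0.000401 and 3.13e-05). FOXH1 overlaps KIFC2 on the opposite strand and had 1.92 to 13.6 CPM in the libraries without mitochondrial genes and RANGAP1-AID, but 0.0794 to 1.13 CPM in the others. FOXA3, a liver and gut relative of FOXA1, fell after NXF1 loss (-1.15 ± 0.19, edgeR adjusted p = 0.00154) and after GANP loss, there from 3, 8 and 8 counts to 3, 2 and 0. FOXN2 rose after 8 h of TPR loss (0.87 ± 0.14, edgeR adjusted p = 0.0193). After 8 h of RANGAP1 loss FOXJ2 rose (0.41 ± 0.09, edgeR adjusted p = 0.00693) and FOXH1 fell (-0.55 ± 0.15, edgeR adjusted p = 0.024). Without the library labelled old2 at 8 h, 8 of the 15 were called after TPR loss in place of 2: FOXD1 (-1.76), FOXO4 (-1.59), FOXA3 (-1.31), FOXL1 (-1.05), FOXD2 (-0.81) and FOXJ2 (-0.52) lower, FOXN2 (0.93) and FOXK2 (0.68) higher. Calls over all 17812 genes went from 639 to 3733 in the same step.

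The comparison was extended to all protein-coding genes tested, 288 with 1 exon in the canonical transcript and 12849 with introns in it. Of the former 9.03% were called lower after 2 h of TPR loss, against 0.311% of the latter. The shares were 7.99% and 0.226% in the old set, 21.2% and 2.23% at 8 h, 18.4% and 6.37% after NXF1 loss, and 44.1% and 11.2% after GANP loss. After RANGAP1 loss they were 0.694% and 0.0467% at 2 h and 19.4% and 4.54% at 8 h. NUP153 loss gave 0% and 0.00778% at 2 h and 1.39% and 0.459% at 8 h, and NUP50 loss 0.694% and 0% at 3 h and 3.82% and 0.0856% at 9 h. FOXC1 and FOXQ1 were below the median of the 288 genes in each TPR, NXF1 and GANP comparison, which was -0.25, -0.52, -0.63, -0.17 and -0.44 in the order above. Histone genes made up 57 of the 288. Without them the share called lower was 11.3%, 9.96% and 26% in the 3 TPR comparisons, 22.5% after NXF1 loss and 55% after GANP loss, but 9.52% in place of 19.4% after 8 h of RANGAP1 loss and 0% in place of 1.39% after 8 h of NUP153 loss. Genes with 1 exon were also called higher, at shares above those with introns, after GANP loss (12.5% and 3.36%, or 0.866% without histone genes) and after 8 h of NUP153 loss (4.86% and 0.646%, or 6.06% without histone genes), while after 8 h of RANGAP1 loss these shares were 7.99% and 9.37%, or 9.96% without histone genes.

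**Figure D3:**
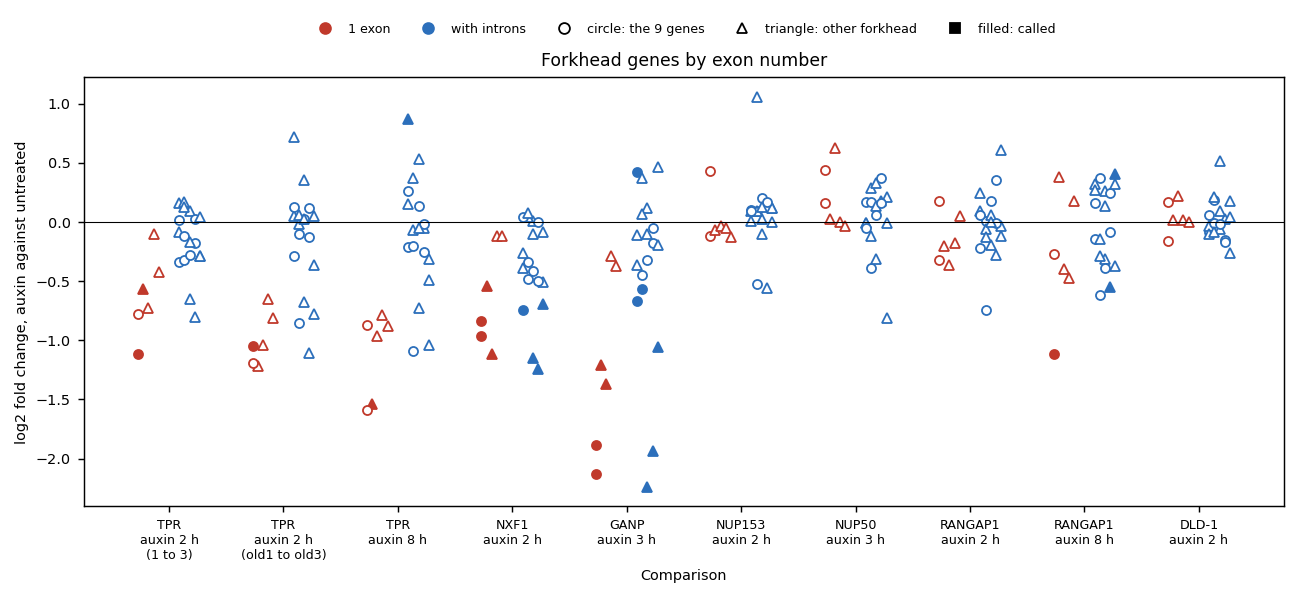
Log2 fold change (vertical axis) of each tested forkhead gene in 10 auxin against untreated comparisons (horizontal axis). Red symbols are genes with 1 exon and blue symbols genes with introns, circles are the 9 genes and triangles the others, and filled symbols were called. The 6 red symbols are all below 0 after TPR, NXF1 and GANP loss and lie on both sides of 0 after NUP50 loss and in DLD-1 cells. Among the blue circles, FOXA1, FOXA2, FOXO3 and FOXK1 are also below 0 after TPR, NXF1 and GANP loss, and FOXO1, FOXM1 and FOXP1 are not in all of these.

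The late against the early auxin libraries give the late change from untreated less the early one, and the members were chosen on such changes. For the members these differences and calls are thus a description, without p-values. FOXQ1 fell between 2 h and 8 h in NUP153-AID cells, from a mean of 111 to 59.1 CPM (log2 difference -0.96 ± 0.19), as the member called beside 1.95% of genes. In RANGAP1-AID cells it fell from 92 to 37.2 CPM (-1.30 ± 0.11). FOXO1 fell there too, from 17.9, 18.9 and 20.8 CPM to 11.9, 13.1 and 13.3 CPM (-0.58 ± 0.09). Thus 2 of 9 members were called, beside 8.8% of genes. FOXO3 (-0.45 ± 0.11), FOXK1 (0.36 ± 0.08) and FOXM1 (0.26 ± 0.07) passed the p bound but not the fold bound. Among the other forkhead genes FOXD1 (0.57 ± 0.09) and FOXJ2 (0.43 ± 0.09) rose (edgeR adjusted p = 0.00181 and 0.00907). In NUP50-AID cells FOXQ1 went from 118, 147 and 170 CPM at 3 h to 113, 103 and 105 CPM at 9 h (-0.47 ± 0.11). No member was called there by edgeR or DESeq2, beside 0.258% of genes by edgeR. At an unadjusted p under 0.05 there were 3 members, beside 1486 of 17812 genes. FOXC1 moved by 0.00 to 0.18 in the 4 lines with a late time.

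In AID-TPR cells no gene was called between 2 h and 8 h (0% of genes by edgeR, 48 genes and no member at an unadjusted p under 0.05, none by DESeq2). Without both auxin libraries labelled old2, an alternative chosen after these libraries had been seen to stand apart, 832 genes were called. FOXQ1 was among them, with -1.38 ± 0.29. FOXN2 (0.65, edgeR adjusted p = 0.0299) and FOXK2 (0.57, edgeR adjusted p = 0.0432) were higher and FOXO4 (-1.07, edgeR adjusted p = 0.0461) lower at 8 h. FOXC1 stood at 0.60 ± 0.23 and was not called.

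The untreated libraries of AID-TPR, AID-NXF1 and AID-GANP cells, counted alike, were set against those of DLD-1 cells in a joint fit of 12 libraries. The 3 comparisons share the DLD-1 libraries. All of these untreated libraries, tagged and parental, also enter the contrasts that chose the members. For the members the differences and calls are thus a description, without p-values. FOXA2 was higher than parental in each line. It had 0.765, 0.99 and 1.06 CPM in DLD-1 and 2.00, 2.38 and 2.68 CPM in AID-TPR cells (log2 difference 1.32 ± 0.31). AID-NXF1 cells had 3.30, 5.98 and 8.60 CPM (2.66 ± 0.29) and AID-GANP cells 3.98, 4.81 and 4.20 CPM (2.21 ± 0.29). No tagged library overlapped the parental ones.

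In AID-TPR cells 2 members were called, FOXA2 and FOXC1, beside 25.9% of genes. FOXC1 had 4.78, 3.87 and 3.93 CPM in DLD-1 cells and was higher in AID-TPR cells (0.64 ± 0.15). Its level after 2 h of auxin, 2.61 to 3.23 CPM, was thus below the parental range while its untreated level was above it. In AID-NXF1 cells 4 members were called, beside 26% of genes. FOXO1 was higher (9.65, 11.3 and 15.1 CPM against 4.69, 4.78 and 3.72, 1.44 ± 0.15). FOXP1 (6.23, 6.05 and 3.95 CPM against 13.1, 13.8 and 16.6, -1.42 ± 0.17) and FOXQ1 (-0.90 ± 0.17) were lower. In AID-GANP cells FOXA2 was the member called, beside 7.99% of genes. Of the 15 other forkhead genes 4 were called in AID-TPR and 5 in AID-NXF1 cells. FOXA3 was higher in AID-TPR and AID-NXF1 cells (3.39 ± 0.36 and 3.57 ± 0.35, edgeR adjusted p = 2.28e-06 and 9.94e-07), as was FOXO4 (1.49 ± 0.20 and 1.14 ± 0.21, edgeR adjusted p = 2.59e-05 and 0.000329) and FOXD2 (0.97 ± 0.24 and 0.87 ± 0.24, edgeR adjusted p = 0.00358 and 0.00794). FOXD1 was higher in AID-TPR cells (0.40 ± 0.09, edgeR adjusted p = 0.00132) and FOXJ2 in AID-NXF1 cells (0.43 ± 0.07, edgeR adjusted p = 6.57e-05), where FOXN1 was lower, at 3, 1 and 0 counts against 12, 17 and 35. In AID-GANP cells edgeR and DESeq2 called none of the 15, with 3 at an unadjusted p under 0.05, beside 5448 of 17812 genes.

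**Figure D4:**
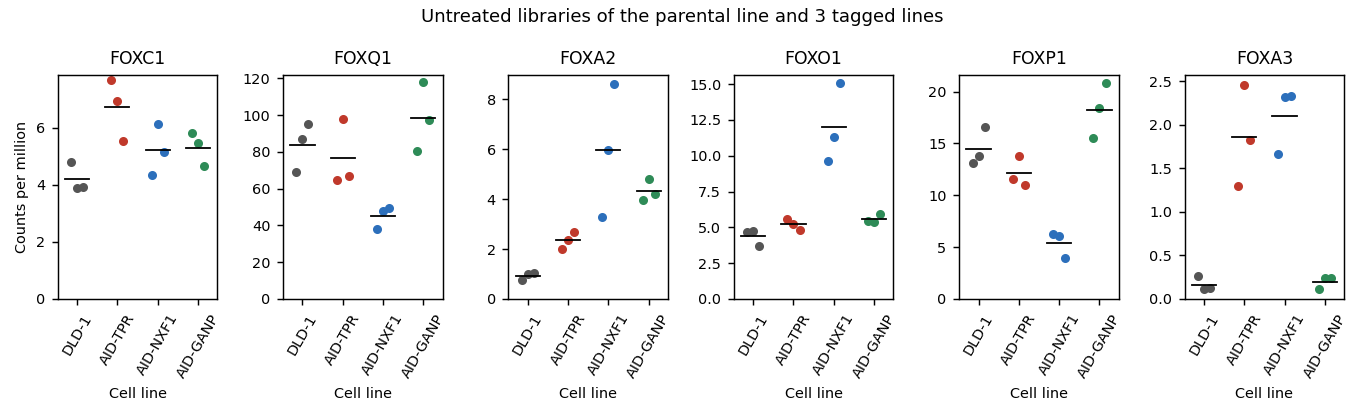
CPM (vertical axes) of 6 forkhead genes in the untreated libraries of DLD-1, AID-TPR, AID-NXF1 and AID-GANP cells (horizontal axes), points being libraries and bars the means of 3. FOXA2 is higher in all 3 tagged lines, FOXO1 is higher and FOXP1 and FOXQ1 are lower in AID-NXF1 cells, and FOXA3 is higher in AID-TPR and AID-NXF1 cells.

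Genes that FOXO and FOXM1 proteins are known to activate were counted next, from lists of 18 FOXO targets, 17 of them tested, and 12 FOXM1 targets, all tested. Both lists were chosen with earlier results of these data known, so their counts and adjusted p-values are a description. After 2 h of TPR loss 1 FOXO target was called, BCL6, a repressor (0.61 ± 0.10, edgeR adjusted p = 0.0294), beside 0.477% of all genes, and the list's median was 0.17 against 0.01 over all genes. In the old set at 2 h edgeR called none of the 17, with 6 at an unadjusted p under 0.05, beside 2151 of 17812 genes. At 8 h GADD45A, a stress response gene, was called higher (0.80 ± 0.16, edgeR adjusted p = 0.0326), beside 3.59% of all genes, and after 8 h of NUP153 loss BCL6 was called lower (-0.74 ± 0.12, edgeR adjusted p = 0.0187), beside 1.32%, where 15 of the 17 were below 0 with a median of -0.28. After 2 h of RANGAP1 loss 3 rose, beside 0.545% of genes called: CDKN1B, a cell cycle inhibitor (0.97 ± 0.10, edgeR adjusted p = 0.00298), GADD45A (0.94 ± 0.11, edgeR adjusted p = 0.00404), and BCL6 (0.91 ± 0.09, edgeR adjusted p = 0.00217). At 8 h 3 were higher and 4 lower, beside 14.8% of genes called, among them TXNIP, an inhibitor of thioredoxin, at 10.4 CPM untreated and 122 CPM treated (3.60 ± 0.17, edgeR adjusted p = 1.66e-06) and the death ligand TNFSF10, near its floor (-1.19 ± 0.29, edgeR adjusted p = 0.0121). After NXF1 loss 5 fell and none was called higher, beside 8.12% of genes called, led by BBC3 (-0.78 ± 0.14, edgeR adjusted p = 0.00233) and CITED2 (-0.61 ± 0.06, edgeR adjusted p = 4.77e-05). After GANP loss 3 rose and 2 fell, beside 15.5% of genes called, the latter being IRS2 (-1.06 ± 0.12, edgeR adjusted p = 0.000132) and SESN1 (-0.86 ± 0.10, edgeR adjusted p = 0.000124). Called members of the list lay on both sides of 0.

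FOXM1 targets were called in 3 auxin comparisons. After 8 h of NUP153 loss 5 of 12 rose, beside 1.32% of genes called, among them KIF20A (0.62 ± 0.07, edgeR adjusted p = 0.00501) and PLK1 (0.52 ± 0.08, edgeR adjusted p = 0.012), both mitotic, and the list's median was 0.39. FOXM1 itself stood at 67.7, 72.1 and 62.6 CPM untreated and 82.4, 72.4 and 107 CPM at 8 h there. BIRC5 rose after 8 h of RANGAP1 loss (0.50 ± 0.09, edgeR adjusted p = 0.00235) and CDC25B fell after GANP loss (-0.58 ± 0.07, edgeR adjusted p = 0.000129), 1 of 12 each, beside 14.8% and 15.5% of genes called.

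Likeness to FOXC1 was measured as Pearson's r of log2(CPM + 0.5) less its mean in the matching untreated libraries, over 60 libraries without ActD and 12002 protein-coding genes. These libraries share lines, treatments and counting, so r is a description. The 5 genes most like FOXC1 were SPATA2L (r = 0.933), IER5 (0.917), MARS2 (0.916), PPP1R3D (0.916) and MEPCE (0.910), of which IER5, MARS2 and PPP1R3D have 1 exon. FOXJ2 ranked 137 and FOXA1 399, while FOXQ1, the neighbour with 1 exon, ranked 860 (r = 0.695).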

How the data were processed

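The study's RNA was total RNA depleted of ribosomal RNA, with replicates described as independent. The authors deposited whole-number read counts per Ensembl gene for each library; the submitters' processing notes name CASAVA 1.8.2, STAR 2.6.1c and featureCounts 1.5.2 with GRCh38. Strand handling in counting is not given in the sources used here. Which features were counted differed between groups of the deposited libraries, and this division did not follow the label sets. Gene symbols and exons came from GENCODE 44 (56948 of 58051 identifiers matched).

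The filter kept 17812 genes, those above 1 CPM in at least 4 of the 60 libraries that had no ActD. Each auxin group was compared with untreated libraries of its own line and label set in edgeR 4.0.16 (R 4.3.3, limma 3.58.1) with TMM scaling, the quasi-likelihood test and Benjamini-Hochberg adjustment over all genes. Genes called in DLD-1 cells were not called in tagged lines. Tables and figures used Python 3.11.15, pandas 2.3.3, numpy 2.4.6 and matplotlib 3.10.9. Replicates differed beyond counting noise (chi-square per degree of freedom 4.07 to 67.4). The fit was tested on simulated counts.

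The members and the gene lists were chosen with earlier results of these data known. Besides the 9 genes, those named are other forkhead genes and listed target genes called at least once (at most 2 targets per comparison by size of change), overlapping and neighbouring genes, the 5 genes most like FOXC1, the tagged genes, CYP1A1 and general cell markers. FOXD4, FOXL1, FOXK2, FOXO6 and FOXF2 were named for completeness. Replicate numbers from the sample titles paired samples (every pair's correlation of deviations from the group mean over 0.1) in 7 of 13 comparisons: AID-TPR 2 h replicates 1 to 3, NUP153-AID 2 h, both RANGAP1-AID times, AID-NXF1, AID-GANP and ActD. Alternatives were RLE scaling, library sizes alone, no filter or an FPKM filter, DESeq2 1.42.0, a replicate block, a joint fit of all libraries, a 1.3-fold bound in both directions, keeping genes called in DLD-1 cells, and leaving out each library in turn.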

Additional observations from a re-analysis of the deposited data

Results flagged for a closer look

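The fitted difference between lines in the change on auxin was past the bound for 3 forkhead genes, of which only FOXD1 was not chosen on these changes. For FOXC1 the log2 fold change in AID-TPR cells was lower than in NUP50-AID cells by -1.56 and lower than in DLD-1 cells by -1.30. Between AID-NXF1 and AID-GANP cells it differed by 1.01, and FOXQ1 by 1.12. As FOXC1 and FOXQ1 were chosen on the changes that enter these differences, their values are descriptions and no test of a difference. FOXD1 differed by -0.60 between AID-TPR and DLD-1 cells and by 0.63 between AID-NXF1 and AID-GANP cells. The differences from DLD-1 cells take the DLD-1 labels as given, in which CYP1A1 ran opposite to the tagged lines. Auxin lasted 2 h in AID-TPR, DLD-1 and AID-NXF1 cells and 3 h in NUP50-AID and AID-GANP cells, and the part of this in the differences was not tested.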

How the results depend on the processing

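Of the log2 fold changes of the 9 genes under the alternatives, 1493 moved by less than the spread between replicates, 15 by more, and none that was called changed sign. FOXC1 stayed called under all 9 alternatives other than leaving out a library in the AID-TPR 2 h (replicates 1 to 3), AID-NXF1 and AID-GANP comparisons, and FOXQ1 in the RANGAP1-AID 8 h, AID-NXF1 and AID-GANP comparisons. The number of members called did change elsewhere, and the cause was not tested. Most counts below are not set beside the number of all genes called in the same fits. From such counts alone a general change in calls and one of the members cannot be told apart. Over all genes, DESeq2 called 421 in the old set at 2 h, 1894 at 8 h and 389 in NUP153-AID cells at 8 h. The edgeR counts there were 79, 639 and 235. In AID-TPR replicates 1 to 3 (1 called) it was 2 without a filter and 2 with the replicate block, and 0 to 1 when a library was left out. In the old set at 2 h (1 called) it was 0 with RLE scaling, 2 without a filter, 2 by DESeq2, 2 with the block, 2 in a joint fit, and 0 to 1 with a library left out. At 8 h (0 called) it was 2 with library sizes alone, 2 without a filter, 3 by DESeq2, 2 with the block, 3 in a joint fit, and 0 to 3 with a library left out. In NUP153-AID cells 1 was called without a filter at both times, 1 with the block at 2 h and 1 by DESeq2 at 8 h, against 0. In NUP50-AID cells at 9 h the block gave 1 against 0. In RANGAP1-AID cells at 2 h no filter and the block gave 1 against 0. At 8 h (1 called) no filter gave 3, the block 2, a 1.3-fold bound in both directions 2, and leaving out a library 1 to 2. In AID-NXF1 cells (3 called) library sizes alone and the 1.3-fold bound gave 4, and leaving out a library 3 to 4. In AID-GANP cells (5 called) the FPKM filter, which FOXP1 did not pass, and a joint fit gave 4, and leaving out a library 4 to 6. Between 8 h and 2 h in AID-TPR cells leaving out both old2 libraries gave 1 against 0. For the differences between lines the block passed 4 members against NUP153-AID (0 without), 5 against NUP50-AID (1) and 4 against RANGAP1-AID (0). It passed 3 against DLD-1 (1) and 5 between AID-NXF1 and AID-GANP (2). DESeq2 passed 1, 2 and 1 in the first 3, beside 262, 212 and 146 of all genes, against 115, 22 and 53 in edgeR. In the old AID-TPR sets, NUP153-AID at 8 h, both NUP50-AID comparisons and DLD-1 the samples share only a number by the pairing check. The replicate block changed no other call of a member. Over all genes, leaving out untreated old2 gave 0 calls at 2 h and 5 at 8 h, against 79 and 639. FOXA2 with 18 to 270 counts and FOXC1 with 47 to 254 were the members that depth limits most.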
